A study of Mus musculus with 2 samples.

Results

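The genes described here are those of the cytosolic ribosomal proteins, chosen by name: rows called Rps or Rpl with a number and at most 1 trailing letter and digit, together with Rpsa, Rplp0, Rplp1 and Rplp2. Among 15364 deposited genes, 80 names matched, and 76 of them held at least 20 counts over the 640 kept cells. They comprise 30 proteins of the small subunit, 44 of the large subunit and 2 paralogs, Rps27l and Rpl7l1. The 4 names below the minimum were Rps27 with 8 counts, Rplp2 with 5, Rpl22l1 with 4 and Rpl3l with 1. The name rule was not based on any measured level, and 74 of the 77 proteins of a standard mammalian ribosome were among the members.

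The cells were neural stem cells of 6-week-old male C57BL6/J mice, isolated from hippocampus and grown in culture. Quiescent cells had been treated with 50 ng/mL of BMP4 in medium with FGF2 but no EGF, and counted as quiescent after 3 days. The 24 h exit and 48 h exit cells were quiescent cells moved back to activation medium, with 0.5 µg/mL of the BMP4 antagonist noggin added, for 24 or 48 h. Activated cells, from which the others had been made, grew in serum-free medium with 20 ng/mL of FGF2 and EGF. All cells had been sorted as viable single cells over 4 gates of rising autofluorescence (low, low-mid, mid-high and high). Each state is 1 culture here, and values compared between states have no replicates. One plate held quiescent cells with those at 24 h, and the other held activated cells with those at 48 h.

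The ribosome reads messenger RNA and joins amino acids into protein. Its small subunit, built on 18S ribosomal RNA, binds the messenger and decodes it, and its large subunit forms the peptide bond. A flexible stalk of Rplp0, Rplp1 and Rplp2 on the large subunit recruits elongation factors, while Rpl5 and Rpl11 bind 5S ribosomal RNA and, when free, the p53 inhibitor Mdm2. Messengers for nearly all ribosomal proteins begin at a C followed by a run of pyrimidines, the 5′ terminal oligopyrimidine or TOP motif. Through this motif the kinase mTOR and the RNA-binding protein Larp1 set how many of them are translated and how stable they are. Stem cells of the adult brain are known to raise protein synthesis when they leave quiescence.

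The promoters of 56 members were found in RefSeq (GRCm38.p6), each with 250 bases before and 50 bases after the annotated start. To show what a TOP start looks like, 30 bases around the annotated start are given first for 6 members with a long pyrimidine run. They are followed by the members with the highest ratios of activated to quiescent cells (Rpsa and Rpl12) and 2 of those with the lowest (Rps15 and Rpl27), so that both can be read against the values, and by the 2 paralogs. The gene strand is written 5′ to 3′, base 16 is the annotated start, and capitals mark the unbroken run of C and T that holds it.
Rps6, chr4:86857353-86857382, minus strand: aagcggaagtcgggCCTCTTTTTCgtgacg
Rps18, chr17:33955651-33955680, minus strand: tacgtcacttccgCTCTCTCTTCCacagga
Rpl15, chr14:18270972-18271001, minus strand: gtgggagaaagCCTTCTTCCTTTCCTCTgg
Rpl28, chr7:4792950-4792979, plus strand: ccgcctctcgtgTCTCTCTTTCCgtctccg
Rpl35, chr2:39005117-39005146, minus strand: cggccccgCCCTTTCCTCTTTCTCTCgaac
Rpl38, chr11:114668565-114668594, plus strand: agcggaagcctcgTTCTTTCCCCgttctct
Rpsa, chr9:120127751-120127780, plus strand: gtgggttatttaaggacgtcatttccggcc
Rpl12, chr2:32961697-32961726, plus strand: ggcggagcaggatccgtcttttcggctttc
Rps15, chr10:80292416-80292445, plus strand: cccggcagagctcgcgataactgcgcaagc
Rpl27, chr11:101442230-101442259, plus strand: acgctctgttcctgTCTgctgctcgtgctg
Rps27l, chr9:66946071-66946100, plus strand: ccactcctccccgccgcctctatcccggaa
Rpl7l1, chr17:46782642-46782671, minus strand: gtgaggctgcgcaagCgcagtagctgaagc
The run over the annotated start was 10 bases long in Rps6 and Rpl38, 11 in Rps18 and Rpl28, 17 in Rpl15 and 18 in Rpl35. It was 3 bases in Rpl27 and 1 in Rpl7l1, and Rpsa, Rpl12, Rps15 and Rps27l had a purine at the annotated start. Runs that begin off the annotated base, as in Rpl12, are not marked.

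A run of 6 or more C or T over the annotated start was present in 17 of 56 members (30.4%), against 8.48% of all 27025 genes with a promoter in the table and 8.40% of the 8711 that also held 20 or more counts here. The letters CTCTTTC stood somewhere in the 300-base window, on the gene strand, in 12 of 56 members (21.4%), against 4.60% of all genes. On either strand they stood in 17 of 56 (30.4%), against 9.28%. The letters CCGGAAG, which ETS-family factors such as GABP recognise, were found on either strand in 23 of 56 members (41.1%), against 9.93% of all genes and 20.8% of those with counts. Annotated starts are often some bases away from the base at which transcription begins, so these counts describe the windows only.

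The study's text gives 47 cells per condition, while the per-cell table keeps 32 to 46 per culture and gate. Kept cells numbered 174 quiescent, 151 at 24 h, 151 at 48 h and 164 activated, with 4815934, 3046628, 4125228 and 6563487 transcript counts in that order. All 10 listed markers of neural stem and progenitor cells had counts, with a summed level of 5883 to 7669 CPM (counts per 1000000 counts of a culture) over the 4 cultures. Markers of microglia, endothelium and fibroblasts summed to at most 1.97 CPM in any culture, those of neurons to 5.82 to 42.2 CPM and those of oligodendrocytes to 13.3 to 40.7 CPM. All 7 astrocyte markers were present, at a summed 1989, 2402, 531 and 160 CPM in the quiescent, 24 h, 48 h and activated cultures, so they were lowest where ribosomal protein transcripts were highest. Their part in the results below was not tested.

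The ribosomal protein genes held 778722 of 18551277 counts, or 4.20%. Their share of a culture's counts was 2.54% in quiescence, 2.26% after 24 h of exit, 4.03% after 48 h and 6.42% in activated cells. An average cell held 702, 455, 1101 and 2571 member transcripts in the same order. Each transcript gives 1 tag at its 3′ end, so a gene's CPM is a share of molecules and is not scaled to length. Among the most abundant members over all cells were Rpl4, Rpsa, Rps2 and Rpl23, and a member's median was 9497 counts. In the order quiescent, 24 h, 48 h, activated, Rpl4 had 789, 722, 1471 and 2367 CPM, and Rps2 had 670, 596, 1264 and 2511 CPM. Rpl23, which also binds Mdm2, had 658, 603, 1013 and 1634 CPM. Each of these was lowest at 24 h and highest in activated cells.

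Ribosomal protein transcripts were higher in activated than in quiescent cells across the whole set. All 76 members were higher, where 54.4% of all genes were, with a median log2 ratio of 1.28 (10 CPM added to each level), and 72 of 76 were past 1.5-fold, where 18.9% of all 11559 genes with 20 or more counts were that much higher. The median of all those genes was 0.06. Since the members are abundant, the 70 with at least 1000 counts may be set beside the 3011 genes of that abundance: 70 of 70 were past 1.5-fold, against 28.9%. The exact 95% interval of the ratio, which covers counting error only here and throughout, lay above 0 for 74 members. The direction was the same in each of the 4 gates for 74 members. Here and below, shares over all genes were not computed for counts by interval or by agreement of gates. Such counts describe the members and do not set them apart from other genes of like abundance.

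Rpsa, a small-subunit protein that also serves as the laminin receptor, had 2417 CPM (95% interval 2380 to 2455) in activated cells, against 604 CPM (582 to 626) in quiescent cells. That is a log2 ratio of 1.98 (1.93 to 2.04), and the 4 gates of activated cells, at 2252 to 2666 CPM, did not overlap those of quiescent cells, at 535 to 733 CPM. Rpl12, a large-subunit protein at the base of the stalk, had 1147 CPM in activated cells, against 283 CPM in quiescent cells, a log2 ratio of 1.98 (1.90 to 2.06). Rps2, which lines the messenger entry site, had 2511 CPM in activated and 670 CPM in quiescent cells, a log2 ratio of 1.89 (1.84 to 1.94). Rpl35, near the exit of the peptide tunnel, had a ratio of 1.61 (1.51 to 1.71). The order of abundance therefore shifted at the top: Rpl4 ranked 1 of 70 in quiescent cells and 3 in activated cells, where Rps2 ranked 1 and Rpsa 2.

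The smallest ratios belonged mostly to rows with very few counts. Rpl37, Rpl34, Rpl30 and Rps15a had 22, 32, 34 and 138 counts in all, and ratios of 0.14, 0.15, 0.25 and 0.31 that 10 added CPM pull towards 0. Of the 70 members with at least 1000 counts the lowest was Rps15, a small-subunit protein, with 666 CPM in activated cells and 421 CPM in quiescent cells, a log2 ratio of 0.65 (0.58 to 0.73). Its gates still did not overlap, at 623 to 717 CPM in activated and 364 to 467 CPM in quiescent cells. Between these ends the members differed by more than their counting error: the SD over the 70 members was 0.28 on the log2 scale, against a median counting error of 0.04.

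The 2 subunits gave similar ratios. The 30 small-subunit members had a median of 1.35 and the 44 large-subunit members, stalk included, one of 1.23, with all 30 and all 44 higher in activated cells. Rplp0 of the stalk had 1425 CPM in activated cells, against 530 CPM in quiescent cells, a ratio of 1.41 (1.35 to 1.47), and Rplp1 had 1256 CPM against 506 CPM, a ratio of 1.30 (1.23 to 1.36). The 5S pair lay lower, with Rpl5 at 1533 CPM in activated and 680 CPM in quiescent cells (1.16, 1.11 to 1.22) and Rpl11 at 818 and 426 CPM in the same cells (0.92, 0.85 to 1.00). Rps6, the substrate of the S6 kinases that mTOR controls, had 1616 CPM in activated cells and 553 CPM in quiescent cells, a ratio of 1.53 (1.47 to 1.59).

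**Figure D1:**
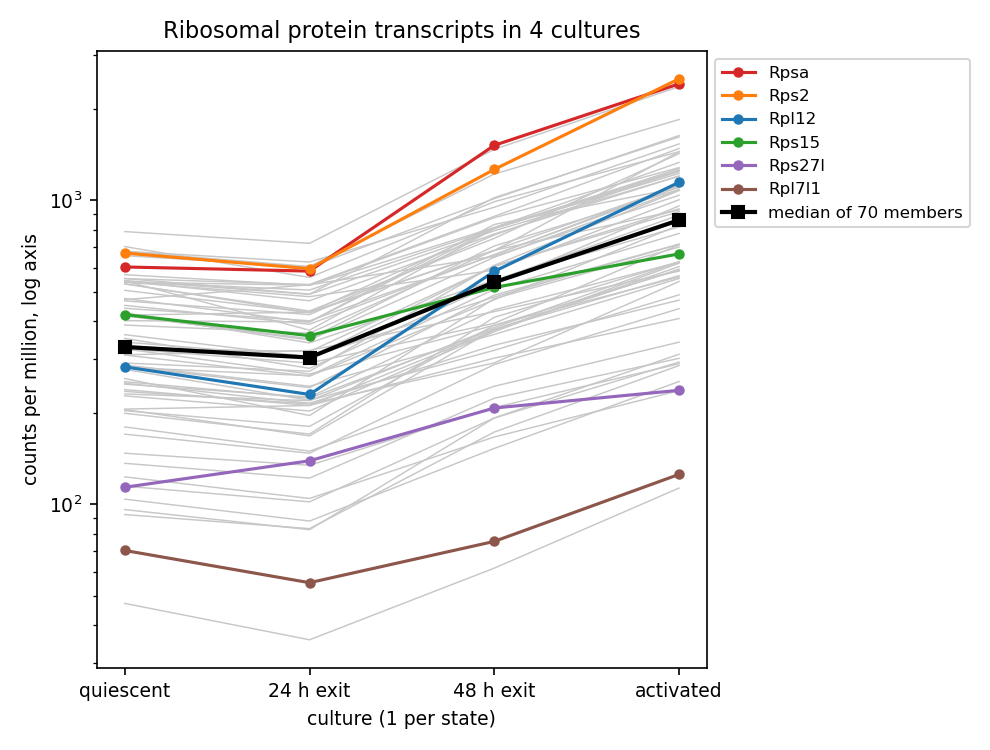
CPM (log axis) of the 70 members with 1000 or more counts by state, in order quiescent, 24 h exit, 48 h exit and activated. Grey lines are single members, coloured lines 6 named ones and black squares the median; nearly all lines dip or stay level at 24 h and are highest in the activated culture, where Rps2 reached 2511 CPM.

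At 24 h of exit the set stood slightly below quiescence. Of 76 members 66 were lower and 10 higher, where 51.4% of all genes were lower and 48.4% higher, with a median log2 ratio of -0.16 to the quiescent culture on the same plate, where the median of all genes was -0.01. No member was past 1.5-fold, against 4.11% of all genes higher and 5.68% lower. The interval lay below 0 for 49 members, above 0 for 2 and held 0 for 25, with no share over all genes to set beside these counts. The direction was the same in each gate for only 13 of 76 members, and in the low gate alone the median turned to 0.13.

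The member furthest below was Rpl41, the smallest protein of the ribosome, with 374 CPM at 24 h and 543 CPM in quiescence, a log2 ratio of -0.53 (-0.63 to -0.43) that was negative in all 4 gates. Rpl13a, a large-subunit protein that in human cells also silences inflammatory messengers, followed at -0.39 (-0.52 to -0.25). Rpl13, Rps14 and Rpl11 stood at -0.33, -0.32 and -0.32. The paralog Rps27l was highest, with 139 CPM at 24 h and 114 CPM in quiescence, a log2 ratio of 0.27 (0.10 to 0.44). Rps4x, the X-linked small-subunit protein, had 527 CPM at 24 h and 471 CPM in quiescence, a ratio of 0.16 (0.07 to 0.25). Rps15a at 0.22, Rpl34 at 0.10 and Rpl31 at 0.10 rested on 779 or fewer counts in all, and their intervals held 0.

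At 48 h of exit ribosomal protein transcripts were below those of activated cells on the same plate. All 76 members were lower, where 59.8% of all genes were, with a median log2 ratio of -0.61, and 51 were past 1.5-fold lower, where 7.42% of all genes were. The median of all genes was -0.07. Among members with at least 1000 counts 50 of 70 were past the fold, against 11.5% of genes of that abundance. The count of 51 of 76 was 19 with TMM factors, where 5.10% of all genes were past the fold, 19 with DESeq2 factors (5.09% of all genes) and 16 with totals that exclude mitochondrial genes and the members themselves (5.78%). The direction was the same for 72 members in each gate.

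Rpl10, which joins the large subunit in a late step of its assembly, was furthest below, with 683 CPM at 48 h and 1445 CPM in activated cells, a log2 ratio of -1.07 (-1.13 to -1.01). Rps2 had 1264 CPM at 48 h, against 2511 CPM in activated cells (-0.98, -1.03 to -0.94). Rpl12 had 584 CPM, against 1147 CPM (-0.96, -1.03 to -0.90), and Rplp0 750 CPM, against 1425 CPM (-0.92, -0.98 to -0.86). Rps3, at the messenger entry, had a ratio of -0.87. The nearest to activated levels among the well-covered members was Rps27l, with 207 CPM at 48 h and 237 CPM in activated cells (-0.19, -0.30 to -0.07). Rpl37, Rpl30 and Rps15a, at -0.03, -0.11 and -0.19, had intervals that held 0. Rpl34 had no count at 48 h, which allows up to 0.727 CPM at a limit of 3 counts, and no fold is given.

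Set against the earlier states, the 48 h culture was higher. Against 24 h exit, 74 of 76 members were higher, where 47.3% of all genes were, with a median log2 ratio of 0.74 and 58 past 1.5-fold, against 10.4% of all genes (58 of the 70 well-counted members, against 16.7% of genes with 1000 or more counts). Against quiescence 75 of 76 were higher, where 48.7% of all genes were, with a median of 0.58 and 37 past 1.5-fold, against 11.0% of all genes (37 of 70, against 17.4%). Both comparisons set 1 plate against the other, so plate and state cannot be told apart, and the same holds for activated against quiescent cells. Rpsa led both, with 1517 CPM at 48 h, against 585 CPM at 24 h (1.36, 1.28 to 1.44) and 604 CPM in quiescence (1.32, 1.25 to 1.38). Against 24 h it was followed by Rpl12 at 1.31, Rpl13a at 1.24 and Rpl35 at 1.23, and among the next against quiescence were Rpl21 at 1.03, Rpl12 at 1.02 and Rpl35 at 1.01.

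The lowest ratios against quiescence among well-covered members were those of Rpl7l1 at 0.09 (-0.11 to 0.29) and Rpl7 at 0.13 (0.05 to 0.21). Against 24 h they were those of Rpl7 at 0.28 (0.19 to 0.38) and Rps4x at 0.31 (0.22 to 0.39). The rows with few counts again lay near 0, with Rpl30 at 0.12, Rpl37 at 0.10 and Rps15a at -0.09 against 24 h, and Rps15a at 0.12 and Rpl37 at 0.11 against quiescence. Expressed as a part of the log2 distance between quiescent and activated levels, the 48 h level of the 70 well-covered members stood at a median of 48.6% of the way, with quartiles of 42.8% and 56.6%. Rpl7l1 at 11.6% and Rpl7 at 14.4% had gone the least, and Rpl21 at 72.2% and Rps27l at 81.4% the furthest.

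**Figure D2:**
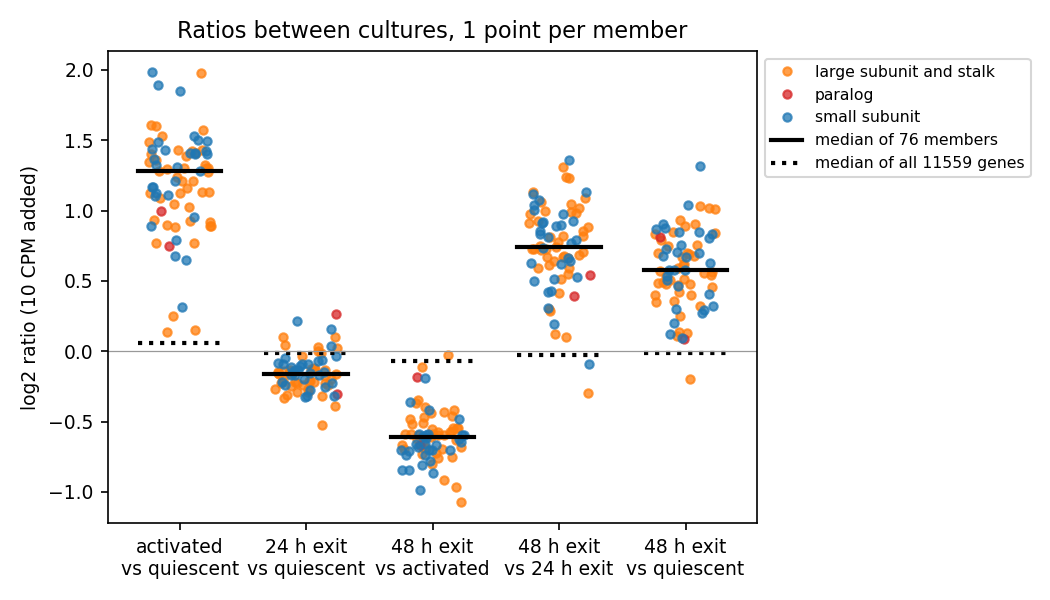
Log2 ratio of each of the 76 members, with 10 CPM added, in 5 comparisons of cultures. Points are small-subunit, large-subunit and paralog members, solid bars their median and dotted bars the median of all 11559 genes; the members' median is 1.28 for activated against quiescent, -0.16 for 24 h against quiescent and -0.61 for 48 h against activated.

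Comparisons that share no culture can be read side by side. Over the 70 well-covered members the log2 ratios of activated to quiescent and of 48 h to 24 h had a Pearson correlation of 0.83 and a Spearman correlation of 0.84. Both ratios set the same plate against the other, so what the points share includes plate. For the 2 ratios taken within plates, 24 h to quiescent and 48 h to activated, the values were 0.34 and 0.14. The order of the members by CPM changed little, with a Spearman correlation of 0.94 between activated and quiescent cells and 0.98 both between 24 h and quiescent cells and between 48 h and activated cells. These are descriptions over genes, which are not independent replicates.

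Of the paralogs, Rps27l, a relative of Rps27 that p53 induces, had 114, 139, 207 and 237 CPM in the quiescent, 24 h, 48 h and activated cultures, and was, with Rps4x, one of 2 members whose 24 h interval lay above its quiescent level. Rps27 itself had 8 counts, too few to compare. Rpl7l1, a nucleolar relative of Rpl7 that acts in ribosome assembly, had 70.4, 55.2, 75.4 and 125 CPM. Rpl7 had 538, 482, 589 and 1005 CPM in the same cultures. For this pair the ratios ran close together: activated to quiescent they were 0.75 for Rpl7l1 and 0.89 for Rpl7, and 48 h to activated -0.66 and -0.76.

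Counts can also be scaled to ERCC spike-ins, a fixed set of synthetic RNAs added to each well, which follow RNA per cell. On this scale the members had 1.94, 1.25, 3.53 and 7.62 counts per ERCC count in the quiescent, 24 h, 48 h and activated cultures. All other genes together had 74.7, 54.3, 84.0 and 111 in the same cultures. Activated cells held 3.92 times the ribosomal protein transcripts of quiescent cells per spike-in count, and 1.49 times the other transcripts. At 24 h the ratios to quiescence were 0.645 for the members and 0.727 for the rest. The scale raised or lowered all ratios together: the median of all genes was then 0.41 for activated against quiescent, -0.28 for 24 h against quiescent and -0.33 for 48 h against activated. With it, 45 members at 24 h were past 1.5-fold below quiescence, where 18.0% of all genes were, and 72 at 48 h below activated cells, where 25.1% of all genes were.

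The summed share was lower in the high than in the low autofluorescence gate of each culture, while no single member passed the test. From low to high gate it was 2.82%, 2.47%, 2.49% and 2.47% in quiescent cells and 3.09%, 2.44%, 1.86% and 1.96% at 24 h. At 48 h it was 5.20%, 4.61%, 3.70% and 3.21%, and it was 7.11%, 6.76%, 6.53% and 5.96% in activated ones. The log2 ratio of the high to the low gate was -0.19, -0.66, -0.70 and -0.25 in the quiescent, 24 h, 48 h and activated cultures. In quiescent cells the direction depended on the scaling. By CPM 65 of 76 members were lower in the high gate (median log2 ratio -0.16), while with TMM factors 57 were higher and 19 lower (median 0.11). All genes were not counted by gate within single cultures on either scale. These values therefore describe the members and do not set them apart from other genes. In the 24 h, 48 h and activated cultures the medians stayed negative with TMM factors, at -0.52, -0.40 and -0.18.

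In the edgeR quasi-likelihood test of high against low gates, with culture as a block and 4 cultures, 71 of 72 members tested had a negative log2 ratio, with a median of -0.27, and 0 were called at an adjusted p under 0.05 in either direction, where 0.481% of 8739 genes were called lower and 1.90% higher. At an unadjusted p under 0.05 there were 35 members lower and 0 higher, and all genes were not counted at that p. DESeq2 called 3 members lower, among 30 of 14673 genes. On all 16 pools edgeR called 9 lower with gate as a factor, among 173 of 8934 genes. With gate rank as a trend it called 18, among 221 of 8934 genes. Without the quiescent culture edgeR called 4, among 34 of 8390 genes. The median of all genes tested was -0.0017.

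The member closest to the threshold was Rps27a, made as a fusion of ubiquitin and a small-subunit protein. It had 819 CPM in the high and 1076 CPM in the low gate of activated cells, 451 against 817 CPM at 48 h, 239 against 481 CPM at 24 h, and 318 against 414 CPM in quiescent cells. The high gate was lower in each of the 4 cultures, with a fitted log2 ratio of -0.49 ± 0.13 (SE) and an adjusted p of 0.0501 by edgeR. Rpsa had a ratio of -0.50 ± 0.14 with an adjusted p of 0.0557 by edgeR, and Rpl4, a large-subunit protein of the peptide tunnel, one of -0.45 ± 0.13 with an adjusted p of 0.0701 by edgeR. Rps27l was the single tested member with a positive ratio, 0.06 ± 0.13, and in activated cells it had 243 CPM in the high and 201 CPM in the low gate.

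Cells of higher gates also held more RNA. The median total per cell was 55395 counts in the high and 25566 in the low gate of activated cells, and 40452 against 18910 in quiescent cells. On the spike-in scale the members were not lower in the high than in the low gate. They stood at 9.96 in the high and 5.77 in the low gate of activated cells, 3.65 and 3.37 at 48 h, 1.43 and 1.39 at 24 h, and 2.63 and 1.51 in quiescent cells. In activated and quiescent cells the value rose from gate to gate. The low-mid and mid-high gates stood at 1.26 and 0.997 at 24 h, both below the low gate, and at 3.76 and 3.33 at 48 h. With every cell thinned to 12488 identifiers edgeR called 3 members lower, Rpsa, Rps27a and Rpl4, among 47 of 7214 genes. The direction was thus the same at equal depth.

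**Figure D3:**
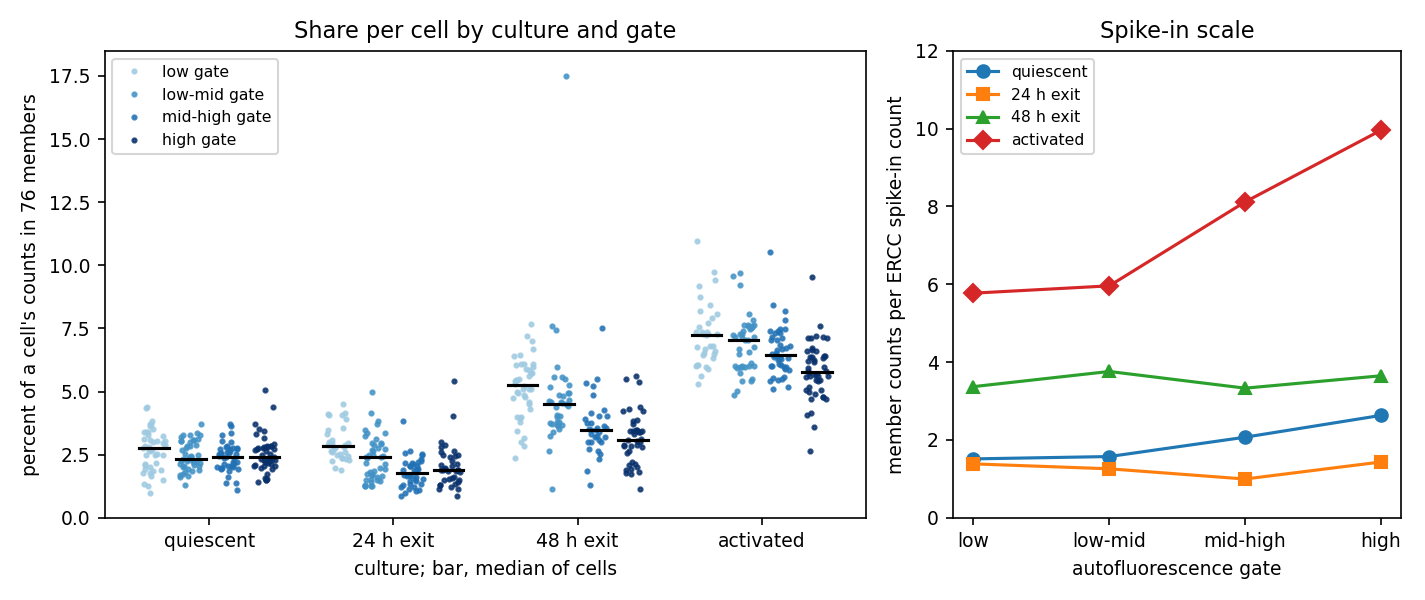
Left, percent of each cell's counts in the 76 members, by culture and autofluorescence gate, 1 point per cell and a bar at the median. Right, member counts per ERCC spike-in count summed over each gate's cells; the share is lower in the high than in the low gate in each culture, though in quiescent cells the members' median ratio turned to 0.11 with TMM factors, while the spike-in value in activated cells is 9.96 in the high and 5.77 in the low gate.

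Cell cycle phase, as given in the deposited per-cell table, was tested over 11 pools of at least 10 cells. In G0 all 73 members tested were lower than in G1 by fitted log2 ratio. Their median was -0.32, where the median of all 10656 genes was 0.03. Of the members 4 fell by the edgeR test, where 0.347% of the 10656 genes were called lower and 0.826% higher. This comparison rests on the quiescent and 48 h cultures, which held both phases. Rps27a fell by 0.76 ± 0.14 (SE, log2, adjusted p = 0.00172 by edgeR), with 321 CPM in G0 and 685 CPM in G1 at 48 h and 304 against 536 CPM in quiescent cells. Rps28, at the messenger exit of the small subunit, fell by 0.65 ± 0.16 (adjusted p = 0.0257 by edgeR), Rpl12 by 0.59 ± 0.15 (0.0352 by edgeR) and Rps18 by 0.63 ± 0.17 (0.0443 by edgeR). In the quiescent culture Rpl12 had 267 CPM in G0 against 459 CPM in G1, and at 48 h 348 against 656 CPM. DESeq2 called 21 members lower, among 40 of 15311 genes called lower. Without the activated culture edgeR called 1, Rps27a, among 20 of 9671 genes, and without the block 0 members and 0 of 10012 genes.

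The G1 pool of the quiescent culture held 12 cells, and the phases rest on the authors' scores of S, G2/M and G0 genes. Between S and G1, and between G2/M and G1, no member was called by edgeR or DESeq2, where edgeR called 6.18% of genes higher and 2.18% lower in S and 6.10% and 1.91% in G2/M. At an unadjusted p under 0.05 edgeR gave 1 member lower in S and 1 higher in G2/M, and DESeq2 gave 1 and 0. The medians were -0.02 and -0.01. The lowest p in S was that of Rps27l, at -0.40 ± 0.14 with an adjusted p of 0.0713 by edgeR, and in G2/M that of Rpl31, at 0.52 ± 0.24 with an adjusted p of 0.224 by edgeR.

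The summed share by phase was 6.26%, 6.69% and 6.30% in G1, S and G2/M of activated cells, and 4.34%, 4.22% and 4.20% in the same phases at 48 h. In G0 pools it was 2.46% for quiescence, 2.16% after 24 h and 2.69% after 48 h of exit, the last against 4.34% in G1 of the same culture. In quiescent cells it was 3.07% in G1, a pool of 12 cells, and 2.94% in S, one of 11. The ratio of 48 h exit to quiescence also differed by phase, a difference that was not tested. Within G0 alone the members' median log2 ratio was 0.076 with 3 past 1.5-fold higher, where 6.30% of all genes were. It was 0.43 with 22 in G1, where 16.2% of all genes were, and 0.47 with 29 in S, where 15.5% were. Only 22 of the 151 cells at 48 h were in G0, while 146 of 174 quiescent cells were.

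**Figure D4:**
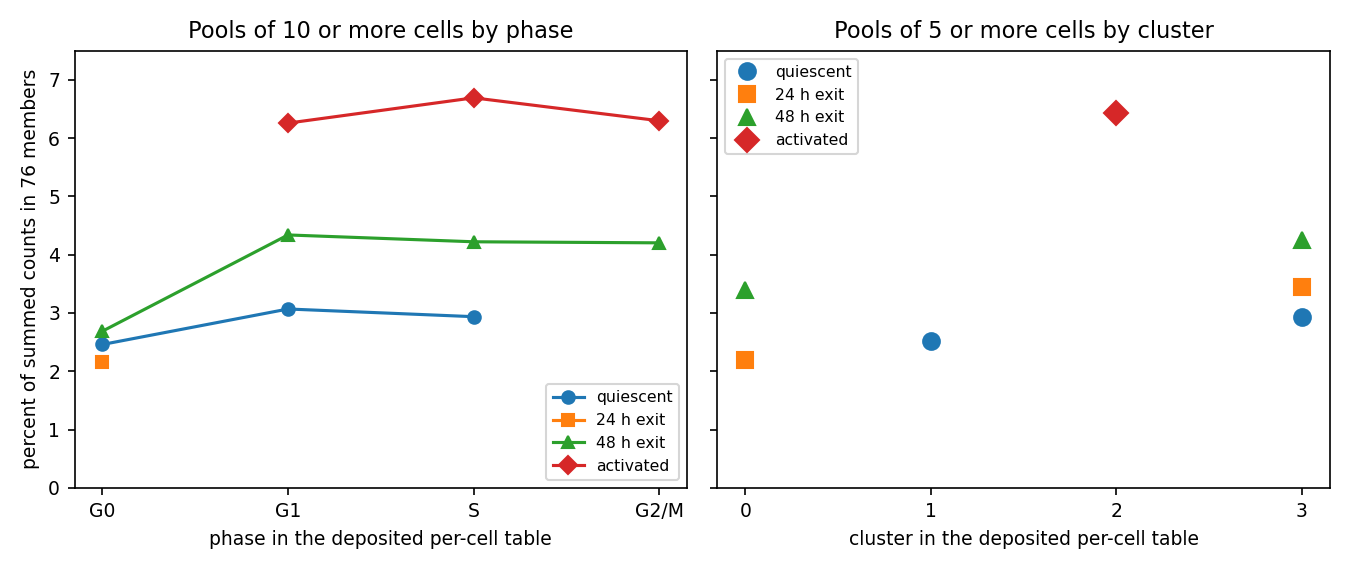
Percent of summed counts in the 76 members by phase (left, pools of 10 or more cells) and by cluster (right, pools of 5 or more cells) for each culture. The 48 h culture stands at 2.69% in G0 and at 4.20% to 4.34% in the other phases, and cluster 2, almost all activated cells, stands at 6.43%.

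The 4 deposited clusters nearly repeat the cultures. Which genes they were made from is not given in the sources used here. Ribosomal protein genes may be among them, so their levels by cluster are a description. Cluster 1 held 166 quiescent cells and cluster 2 held 163 activated cells and 1 cell at 48 h, with shares of 2.52% and 6.43%. Cluster 0 joined 145 cells at 24 h, with a share of 2.20%, and 41 at 48 h, with 3.40%. Cluster 3 held 109 cells at 48 h, at 4.25%, with 6 cells at 24 h at 3.45% and 6 quiescent cells at 2.93%. Within the 48 h culture, Rpsa had 1164 CPM in cluster 0 and 1631 CPM in cluster 3, and 70 of 76 members were lower in cluster 0, with a median log2 ratio of -0.31, where 59.2% of all genes were lower and their median was -0.08. One cell of cluster 0 at 48 h, from the low-mid gate, had 17.5% of its counts in the members, where the next highest of that culture had 7.67%. Without it the share of cluster 0 at 48 h was 3.24%, the share of the culture 3.99% and the count of lower members 72.

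Single cells of a culture differed in their share. The median cell had 2.48% in quiescence (quartiles 2.06% and 2.91%), 2.15% at 24 h (1.62% and 2.74%), 3.94% at 48 h (3.19% and 5.14%) and 6.50% in activated cells (5.87% and 7.29%). The quartiles were thus widest for their median at 24 h and 48 h, at 0.518 and 0.495 of it, against 0.342 in quiescence and 0.218 in activated cells. Within each culture the summed share of small-subunit transcripts followed that of the large subunit across cells, with a Spearman correlation of 0.94 to 0.97. Cells of a culture share library and plate, and these correlations have no test.

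Across cells the share went with autofluorescence at a Spearman correlation of -0.13 in quiescence, -0.44 at 24 h, -0.62 at 48 h and -0.42 in activated cells. The correlation with the authors' G0 score was -0.31, -0.56, -0.74 and -0.50 in the same cultures. With forward scatter, a measure of cell size, it was 0.08, -0.11, -0.36 and -0.33. With the cell's total count it was 0.07, -0.05, -0.24 and -0.31, so depth moved with the share most in activated cells. With the percentage of mitochondrial counts it was -0.47, -0.38, -0.58 and -0.57, and the part of that percentage in these values was not tested. In cells above the median total of their culture, the values for autofluorescence were -0.18, -0.50, -0.64 and -0.28.

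**Figure D5:**
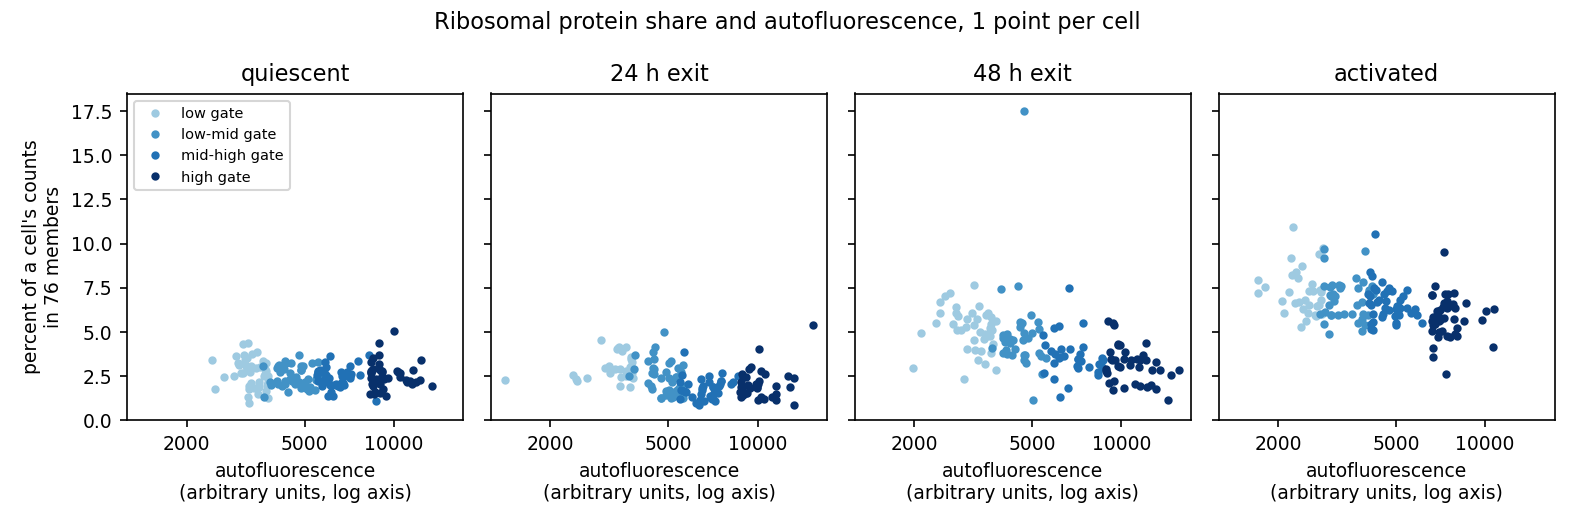
Percent of each cell's counts in the 76 members against the cell's autofluorescence intensity (arbitrary units, log axis), coloured by gate, for the 4 cultures. The points slope down most at 48 h (Spearman -0.62) and least in quiescence (-0.13), and 1 cell at 48 h stands at 17.5%.

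Single members were also set against the summed share of the others across cells. The highest mean correlations over the 4 cultures were those of Rpl23 at 0.72, Rps3a1 at 0.72 and Rps6 at 0.71, and the lowest with a value in each culture were those of Rpl37 at -0.0058, Rps15a at 0.0073 and Rpl31 at 0.09, all of which had under 1000 counts. Of 2244 genes outside the set with an average of 2 or more counts per cell, 34 had a correlation with the share of 0.3 or more in every culture and 7 one of -0.3 or less. The 10 highest were Tpt1 (mean 0.62), Npm1 (0.62), Eef1a1 (0.61), Eef1b2 (0.60), Gnb2l1 (0.59), Eif5a (0.53), Pabpc1 (0.51), Ran (0.50), Cdk4 (0.50) and Hnrnpab (0.49). They include the elongation factors Eef1a1 and Eef1b2, the poly(A)-binding protein Pabpc1 and Gnb2l1, the small-subunit scaffold also called Rack1. Among the lowest were Malat1 (-0.55), a nuclear long noncoding RNA, Atp1b2 (-0.52), the mitochondrial transcripts mt-Rnr2 (-0.50), mtNd5 (-0.47), mt-Rnr1 (-0.46), mtNd4l (-0.45) and mtNd4 (-0.42), and Slc4a4 (-0.42) and Lcat (-0.40). These values share each cell's total with the member share.

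Other messengers are also known to have a TOP start. Of a list of 26 such genes 24 were measured, and all 24 were higher in activated than in quiescent cells, where 54.4% of all genes were, with a median log2 ratio of 1.13 and 18 past 1.5-fold, where 18.9% of all genes were. At 48 h all 24 were below activated cells, where 59.8% of all genes were (median -0.60), with 14 past the fold, against 7.42%. At 48 h 23 of 24 were above quiescence, where 48.7% of all genes were (median 0.42). At 24 h 9 were above quiescence, where 48.4% of all genes were, and 15 below, where 51.4% were (median -0.06). The 6 largest ratios of activated to quiescent cells were Vim at 2.44, Npm1 at 1.87, Nap1l1 at 1.74, Eef1b2 at 1.56, Naca at 1.38 and Gnb2l1 at 1.38. Npm1, a nucleolar chaperone, had 1718 CPM in activated and 464 CPM in quiescent cells. Fau, whose product carries the small-subunit protein eS30, had 395 and 192 CPM in the same cells.

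Genes that control ribosomal protein synthesis showed no common direction. Of 30 listed 28 were measured, 13 higher and 15 lower in activated than in quiescent cells, with a median log2 ratio of -0.02, 6 past 1.5-fold higher and 3 lower. Among all genes 18.9% and 13.6% were past the fold in those directions, so the list's counts lie near the background. Mxi1, a repressor that competes with Myc for Max, had 21.2 CPM in activated cells and 77.3 CPM in quiescent cells (-1.48, -1.69 to -1.27). Eif4ebp1, an inhibitor of translation that mTOR inactivates, had 79.4 and 24.3 CPM (1.38, 1.16 to 1.60) in activated and quiescent cells. In the same cells its target Eif4e had 297 and 136 CPM (1.07), Myc 24.4 and 7.06 CPM (1.01) and Trp53 76.8 and 34.3 CPM (0.97). Rrn3, a factor of RNA polymerase I, had 84.8 and 42.0 CPM (0.87).

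At 24 h, when the ribosomal proteins themselves were not above quiescence, Eif4ebp1 had 68.6 CPM against 24.3 CPM in quiescence (1.20, 0.94 to 1.45), Myc 21.0 against 7.06 CPM (0.86, 0.53 to 1.17) and Mxi1 37.4 against 77.3 CPM (-0.88, -1.13 to -0.63), each in the same direction in all 4 gates. Mxd4, another repressor that pairs with Max, followed with 31.2 against 15.8 CPM (0.68), then Akt1s1, an inhibitory subunit of the mTOR complex, with 30.2 against 47.4 CPM (-0.51), and Larp4, which binds poly(A) tails, with 172 against 120 CPM (0.48). Of the 28 genes measured 3 were past 1.5-fold higher at 24 h and 1 lower, where 4.11% and 5.68% of all genes were. The list's median was 0.03. At 48 h no listed gene was past 1.5-fold from activated cells, where 3.72% of all genes were higher and 7.42% lower. The list's median was then -0.05.

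Several members have near-identical copies elsewhere in the genome, and how reads shared by copies were treated is not given in the sources used here. In GENCODE release 21 for the mouse, the last 300 bases of each of the 80 named genes were split into 60-base windows and looked up in the transcripts of other genes. Among the 70 names with 1000 or more counts the median share of windows found elsewhere was 47.5%, 32 had 50% or more and 19 had none. Among the 10 with fewer counts the median was 57.1%. For Rps27 it was 100%, for Rpl30 80.1% and for Rps15a 76.3%, but for Rpl37 and Rpl31 it was 0% and for Rplp2 2.49%. Rpl36a, also at 100%, had 3060 counts. Levels of members with copies are uncertain to the extent that reads of the copies were counted with them.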

How the data were processed

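Per the labels' protocols, single cells were sorted into 384-well plates and libraries were made by SORT-seq with CEL-Seq2 chemistry, with 60 cycles for read 2. The submitters' processing notes list Seurat 4.1.1, BWA 0.7.15 and R 4.2.0, and as builds mm10 and hg19; what each served for is not given in the sources used here. The deposited tables hold expected counts, which are transcript counts the authors corrected for molecules that share 1 of 4096 identifiers; inverting this correction gave whole identifier counts to within 0.0001. A second deposited table lists, for each kept cell, the percent of counts in ribosomal protein and mitochondrial genes, scatter and autofluorescence intensity, gate, cluster, phase, and a cell cycle score for G0, S and G2/M. Both plates use the same 384 well barcodes; wells were sorted as single cells and no doublet caller was run. The 128 wells outside that table carry no condition and entered no comparison.

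Counts of kept cells were summed per culture and divided by their total (CPM). Log2 ratios had 10 CPM added and exact 95% conditional binomial intervals, and levels exact 95% Poisson intervals. These cover counting error only. With 1 culture per state no test was made between states. Culture levels were fitted as a block, so p-values between gates and phases set a mean difference against its residual spread over cultures of different states. The variance was in large part borrowed across genes, with median prior degrees of freedom of 17.6 for gates and 38.6 for phases. Sums per culture and gate (8 pools) or phase (11 pools) were rounded and compared by the quasi-likelihood test of edgeR 4.0.16 (R 4.3.3; filterByExpr, TMM, culture as a block, Benjamini-Hochberg over all genes at 0.05; residual degrees of freedom 3 and 4; common biological coefficient of variation 0.124 and 0.0994). DESeq2 1.42.0 was an alternative. Methods were tested on simulated data. Other steps used Python 3.11.15 with pandas 2.3.3, matplotlib 3.10.9, scipy 1.17.1 and numpy 2.4.6.

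The members and gene lists were chosen with earlier results of these data known. Named in the text are the 5 most abundant members, the 5 highest and lowest ratios of each comparison, Rps6, Rpsa, the stalk, the 5S pair and the paralogs, called members, up to 6 genes of each list and the 10 genes that follow the share most closely in each direction; other members are named as examples. Rpl26 is not analysed here, and some genes that this rule names are not reported here.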

Additional observations from a re-analysis of the deposited data

Results flagged for a closer look

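Counts outside the comparisons were looked at because they lie above the limit that a count of 0 allows. The 5 rows of ribosomal protein pseudogenes held 141 counts over the kept cells. In the wells outside the per-cell table, members held 2.52% of the counts in 59 wells of the plate with quiescent and 24 h exit cells, and 3.28% in 69 wells of the plate with 48 h exit and activated cells. Those wells had a median of 641 and 192 counts, and 0.377 and 0.758 member counts per ERCC count, and no state or gate is known for them. Cultures were also compared in their log2 ratio of high to low gate. The rule took the gap between an extreme culture and the next as a part of the range. It flagged no culture for the summed share or any of 14 members examined. The rule cannot flag cultures that split into pairs. The summed share did so, at -0.19 and -0.25 in quiescent and activated cells and -0.66 and -0.70 at 24 h and 48 h. It therefore does not show that the cultures were alike.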

How the results depend on the processing

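Between cultures, medians kept their direction under the alternatives run, apart from 1 reversal. Activated against quiescent, the median log2 ratio was 1.18 with TMM and with DESeq2 factors, 1.89 per ERCC count, 1.37 in the low-mid and 1.19 in the high gate alone, 0.95 in G1 and 1.11 in S alone, and 1.19 with pseudogene copies added. At 24 h against quiescent it was -0.61 per ERCC count and reversed to 0.13 in the low gate alone. Past 1.5-fold lower were 45 members per ERCC count, where 18.0% of all genes were. In single gates it was 1 member in the low, 8 in the mid-high and 1 in the high gate. Of all genes 15.5%, 11.4% and 6.99% were that much lower in those gates, so these gate counts did not stand above the background. At 48 h against activated the median was -1.05 per ERCC count and -0.83 in the high gate. The count of 51 lower became 16 without mitochondrial and ribosomal protein genes in the totals, and 19 with TMM and with DESeq2 factors. It was 15 in the low and 26 in the low-mid gate, and 19 in G1 and 25 in G2/M alone. Of all 11559 genes, 950 and 1386 were that much lower in those gates, and 1506 and 899 in those phases. Over all cells by CPM 858 were. At 48 h against 24 h the median was 1.39 per ERCC count, 0.91 in the mid-high gate and 0.28 in G0 alone. In G0 7 members were past the fold, where 4.31% of all genes were. At 48 h against quiescent it was 0.32 in the high gate and 0.076 in G0 alone. The count of 37 became 56 without mitochondrial and ribosomal protein genes in the totals, where 16.2% of all genes were, and 59 per ERCC count (15.3%). It was 60 in the low (15.4%), 59 in the low-mid (13.4%) and 9 in the high gate (11.4%). It was 3 in G0 (6.30%) and 22 in G1 alone (16.2%). The counts in the high gate and in G0 thus did not stand clear of the background. The cause of these shifts was not tested.

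The gate test's 0 members called lower became 3 with DESeq2, 4 with no filter, 1 with ribosomal protein genes out of the totals, 9 and 18 with all 16 pools by factor and by trend, 3 after thinning to 12488 identifiers (18, 29, 11 and 6 cells left out in the quiescent, 24 h, 48 h and activated cultures), and 0 to 4 with a culture left out. Of all genes, 109 of 14673 were called lower with no filter and 53 of 8739 with ribosomal protein genes out of the totals. Without the quiescent, 24 h, 48 h or activated culture they were 34 of 8390, 33 of 9087, 1 of 8559 and 15 of 8382. The 4 members lower in G0 than in G1 became 0 without the replicate block, 21 with DESeq2, 7 after thinning, 1 without the activated and 6 without the 24 h exit culture. Of all genes, 36 of 9077 were called lower after thinning and 34 of 9567 without the 24 h exit culture. S and G2/M stayed at 0, but their medians, -0.025 and -0.0073, turned to 0.0033 in S without the 48 h culture. In G2/M the median turned to 0.18 without the block (65 of 73 higher, median of all genes -0.02) and 0.027 with no filter. Blocks are cultures, so no replicate numbers were paired. Cluster 0 had a share of 2.20% at 24 h and 3.40% at 48 h, against 2.52% pooled, and the correlation of share and G0 score in activated cells was -0.29 above the median total. Not run, for want of pools with both phases, were pools of 20 or more cells and leaving out the quiescent or 48 h culture for G0, and leaving out the 48 h or activated culture for G2/M. Leaving out Rn45s, the ribosomal RNA precursor, or the cell with 17.5% was chosen after seeing the data and run between cultures only. Without Rn45s the counts past the fold at 48 h were 54 below activated, 57 above 24 h (58 before) and 36 above quiescent cells. Of all 11559 genes, 934, 1222 and 1238 were past the fold in the same directions. Without the cell 57 members were past the fold above 24 h, where 1212 of all genes were. Genes with few counts are limited by depth.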
